A study of Mus musculus with 4 samples.

Results

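Imprinted genes were followed over 4 mouse stem cell arrays. They are 39 genes, 21 known to be expressed from the paternal copy and 18 from the maternal copy. They were chosen by name from what is known of imprinting in the mouse, by a rule that uses no value of these arrays. Earlier results of these data were known when the genes were chosen. Found by gene symbol among the 18193 genes measured, 37 of the 39 had a probe set of their own. H19 was covered only by a probe set that is also listed for Mir675, and Peg13 was not matched. A signal of 82.7, the median of a normalized array, was taken as a floor. Of the 37 genes 33 exceeded it on 1 or more arrays, and 23 exceeded it on all 4. The chosen probe sets of Usp29, Zim1, Asb4 and Rasgrf1 were under the floor on every array; a second Usp29 probe set read 99.5 on mGS and was under it on the other arrays.

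Each group is 1 array. GS (germline stem) cells are cultured stem cells of the male germ line, and mGS (multipotent germline stem) cells derive from the germ line but resemble embryonic stem cells. For both of these the labels name no genotype, strain or age. The embryonic stem (ES) cells are the line R1. The fourth sample is GS cells with a Trp53 knockout, with ICR in its title, here called knockout GS cells; Trp53 itself was not analysed here. GS and knockout GS cells were kept in a StemPro-34 based medium and mGS and ES cells in standard ES cell medium, so cell type and medium cannot be told apart between these pairs. The labels do not name feeder cells, passage or the number of lines. The study was set up to find candidate molecules for the change of GS into mGS cells. With 1 array per group there are no replicates, so differences are given as sizes without p-values, and the single array per group limits their precision.

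An imprinted gene is read mainly from the copy inherited from one parent, because a DNA methylation mark laid down in the egg or the sperm differs between the copies. Most imprinted genes lie in clusters, where 1 control region acts on several genes, often through a long noncoding RNA. In the germ line the marks are erased and then rebuilt according to the sex of the parent, so male germ cells carry the paternal type of mark on both copies, while cells of the embryo carry 1 copy of each type. The products include growth factors and their antagonists, small ribonucleoproteins, noncoding RNAs and microRNA hosts. The arrays measure total RNA of a gene and do not tell the copies apart, and they do not measure methylation.

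The arrays as deposited had medians between 75.7 and 92.3. Signals below are quantile-normalized and on a linear scale, and are set side by side only within a probe set. A difference against a value under the floor is a bound and is written as at least N-fold. A poly-A control RNA, dap, read 271 on the GS and 255 on the mGS array but 2545 on the ES and 3055 on the knockout array, so the comparisons of ES with mGS, ES with GS and knockout with GS cross that divide. The labelled cell types were checked on marker lists. All 10 germ cell markers were above the floor on the GS and knockout arrays, with a summed signal of 77096 and 91938, against 4626 on mGS and 1949 on ES. All 15 pluripotency markers were above the floor on mGS and ES, with sums of 116415 and 103194, against 10838 on GS and 13409 on the knockout. Markers of undifferentiated spermatogonia separated the arrays less by number and sum, with 12 of 12 measured above the floor on GS and 10 on each other array. Their sums were 35739 on GS, 34110 on the knockout, 21453 on mGS and 27387 on ES. Of these markers 7 were at least 2-fold lower and 2 higher on mGS than on GS, with a median log2 difference of -2.24. On ES 7 were lower and 4 higher than on GS, with a median of -2.45. Lin28a is also in the pluripotency list and Thy1 in the fibroblast list. In a bulk sample fewer cells of a type and less RNA per cell cannot be told apart.

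Start site sequences are shown for 5 imprinted genes: Peg3, Snrpn, Mest and Nnat, whose start sites lie at or near marks of maternal origin but whose signals differ in direction between the arrays, and Meg3, whose noncoding RNA stood furthest above GS on the mGS array. They are RefSeq windows of 300 bases, 250 before and 50 after the start, on build GRCm38.p6, for each gene the window with the most CG dinucleotides, printed 5′ to 3′ on the gene's strand. Capitals mark the hexamer TGCCGC found on either strand, so a match on the other strand shows as its reverse complement. These are the core letters bound, when methylated, by Zfp57, a zinc finger protein that keeps imprints. The Peg3 window is chr7:6730370-6730669 on the minus strand, and it shares 263 bases with the window of Usp29, which is read the other way. The Snrpn window is chr7:60005150-60005449 on the minus strand, and the Mest window is chr6:30737800-30738099 on the plus strand. The Nnat window is chr2:157559828-157560127 and the Meg3 window is chr12:109540746-109541045, both on the plus strand.
Peg3: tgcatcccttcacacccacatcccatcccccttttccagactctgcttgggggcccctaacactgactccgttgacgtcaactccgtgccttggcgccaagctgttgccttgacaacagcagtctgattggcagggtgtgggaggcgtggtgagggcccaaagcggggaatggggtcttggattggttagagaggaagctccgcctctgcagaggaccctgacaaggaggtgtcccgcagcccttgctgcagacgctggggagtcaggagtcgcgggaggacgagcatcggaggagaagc
Snrpn: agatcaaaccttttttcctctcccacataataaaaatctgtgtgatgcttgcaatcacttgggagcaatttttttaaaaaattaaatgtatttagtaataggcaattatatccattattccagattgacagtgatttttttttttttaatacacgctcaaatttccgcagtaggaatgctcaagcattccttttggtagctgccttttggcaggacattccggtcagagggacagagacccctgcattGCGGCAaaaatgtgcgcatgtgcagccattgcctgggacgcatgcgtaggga
Mest: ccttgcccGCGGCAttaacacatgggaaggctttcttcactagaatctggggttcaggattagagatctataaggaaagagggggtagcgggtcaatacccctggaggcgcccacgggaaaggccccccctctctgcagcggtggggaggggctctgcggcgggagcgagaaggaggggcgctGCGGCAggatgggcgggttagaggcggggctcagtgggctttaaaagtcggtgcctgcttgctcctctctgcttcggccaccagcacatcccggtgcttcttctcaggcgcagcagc
Nnat: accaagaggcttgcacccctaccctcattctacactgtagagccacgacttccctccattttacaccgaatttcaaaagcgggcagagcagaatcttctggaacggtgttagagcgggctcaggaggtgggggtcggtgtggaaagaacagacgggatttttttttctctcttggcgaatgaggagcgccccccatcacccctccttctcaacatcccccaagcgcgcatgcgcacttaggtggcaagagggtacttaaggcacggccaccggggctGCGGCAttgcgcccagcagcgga
Meg3: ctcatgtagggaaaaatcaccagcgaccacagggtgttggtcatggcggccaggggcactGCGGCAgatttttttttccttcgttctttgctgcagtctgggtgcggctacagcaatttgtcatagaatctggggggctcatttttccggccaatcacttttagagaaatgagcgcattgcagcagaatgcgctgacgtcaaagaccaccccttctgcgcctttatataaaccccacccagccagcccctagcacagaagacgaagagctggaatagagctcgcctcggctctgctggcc

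The hexamer, searched on both strands, occurred 2 times in the Mest window, 1 time each in those of Snrpn, Nnat and Meg3, and not in the Peg3 window. Of the 39 genes 32 had windows in the table, 46 windows in all, of which 10 held the hexamer, or 21.7%. Of all 32851 windows of this length, 11.6% did. The 10 include 2 Mest windows that overlap almost fully. Counted by gene, 9 of the 32 imprinted genes held the hexamer in a window, and 3527 of 27025 genes over all windows. The imprinted windows had a median of 11.5 CG dinucleotides against 7 over all windows, so the base composition differs too, and a match describes letters and not a bound site. The windows of Plagl1, Mcts2 and Zim1, 1 but not the other window of Grb10, and 1 of 4 Igf2 windows also held it.

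On the mGS array 12 of the 29 imprinted genes that could be compared were at least 2-fold higher than on the GS array and 4 were at least 2-fold lower. In all, 55.2% of the imprinted genes were that far apart, against 31.8% of all genes compared, with 15.3% of all genes higher and 16.5% lower. Their median log2 difference was 0.89, against -0.04 over all genes. The highest were Meg3, Phlda2, Impact, Grb10, Mirg and Peg3, and the lowest were Igf2 and Cdkn1c. Between probe sets of 1 gene, such differences had a standard deviation of 0.65 over 4474 genes. That is a spread between probe sets on the same arrays. Error between cultures or between arrays cannot be estimated here.

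At 4-fold the counts for mGS against GS were 8 higher and 2 lower, where 5.09% of all genes were higher and 4.08% lower. For ES against mGS they were 2 and 1, where 1.62% were higher and 0.635% lower. For the knockout against GS they were 4 and 2, where 1.1% and 1.05% were. For ES against GS they were 5 and 0, where 6.11% and 4.5% were. With the knockout array in place of GS, mGS had 12 imprinted genes at least 2-fold higher and 5 lower, where 17.3% of all genes were higher and 21.7% lower, 39% together. ES had 14 and 4 in that comparison, where 18.8% and 21.5% were, 40.3% together.

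**Figure D1:**
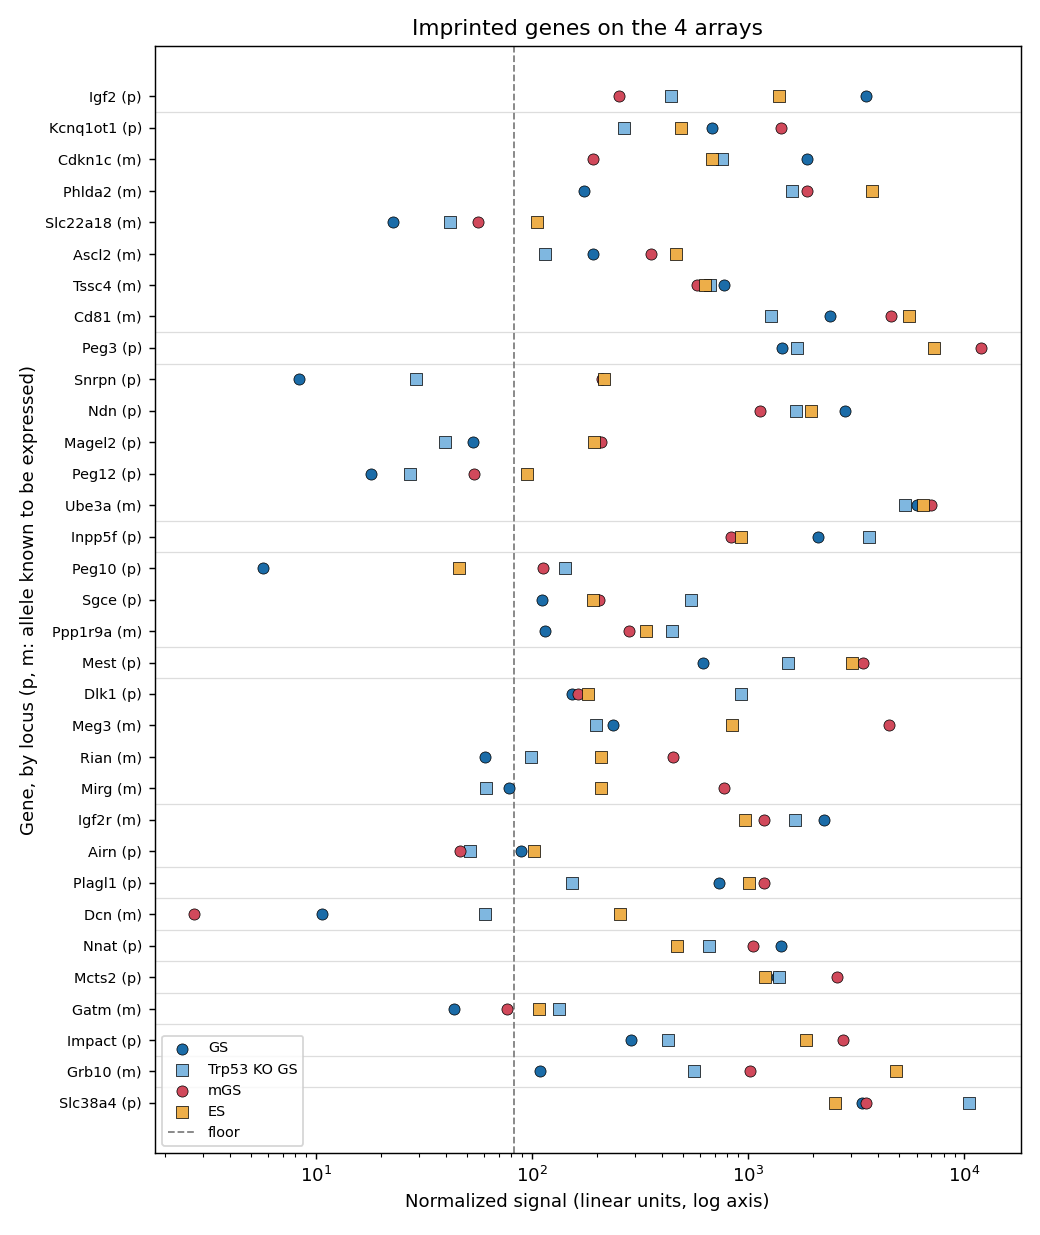
Normalized signal (linear units on a log axis) of the 33 imprinted genes that exceed the floor somewhere, by locus, with 1 point per array and the dashed line at the floor of 82.7. Meg3, Peg3 and Impact have the mGS and ES points to the right of both GS points, and Igf2 has its highest point on the GS array.

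Across all 4 arrays, 7 of 33 imprinted genes were at least 2-fold higher on both the mGS and ES arrays than on both the GS and knockout arrays, against 7.65% of all genes. By their chosen probe sets they were Peg3, Snrpn, Magel2, Meg3, Rian, Mirg and Impact. Meg3, Rian and Mirg lie at 1 locus, and Snrpn and Magel2 at another, so the 7 genes are not separate units. Inpp5f, a phosphoinositide phosphatase gene with an imprinted short transcript, was the 1 gene lower in all cross pairs, against 8.38% of all genes. The division of ES and knockout from GS and mGS is also that of the dap control. No imprinted gene stood out in it, where 0.248% of all genes were higher and 0.256% lower. In the division of mGS and knockout from GS and ES only Igf2 did, lower by at least 3.18-fold where 0.14% of all genes were lower and 0.194% higher. With a floor at the 60th percentile the 7 genes became 3, and the share of all genes at that floor was not counted.

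At the Dlk1-Meg3 locus on chromosome 12 the noncoding RNAs of the maternal copy were high on the mGS array, while the paternally expressed coding gene was not. Meg3, a long noncoding RNA, read 237 on GS, 197 on the knockout, 4455 on mGS and 844 on ES. The mGS array was thus alone at the top, 18.8-fold above GS and 5.28-fold above ES, and ES was 3.56-fold above GS. Rian, which hosts small nucleolar RNAs, read 60.5 on GS, 98.9 on the knockout, 450 on mGS and 208 on ES. The mGS value was at least 5.44-fold above GS and 2.16-fold above ES. Mirg, a host of many microRNAs, read 78.1, 60.9, 770 and 207 in the same order, at least 9.32-fold higher on mGS than on GS and 3.72-fold higher than on ES.

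The 3 RNAs were each covered by several probe sets. Of 11 Meg3 probe sets, 8 were at least 2-fold higher on mGS than on GS, with log2 differences from 0.32 to 4.93, and 6 were at least 2-fold lower on ES than on mGS. All 4 Rian and both Mirg probe sets were at least 2-fold higher on mGS than on GS, and 3 of 4 and both were at least 2-fold lower on ES than on mGS. The higher ES than GS signals of Rian and Mirg, at least 2.52-fold and at least 2.51-fold, were not kept under every setting: with the floor at the 60th percentile the log2 differences were 0.44 and 0.43, and for Rian 0.51 without probe sets prone to cross-hybridisation and 0.41 with a pseudocount. Dlk1, which encodes a transmembrane relative of the Notch ligands, read 154 on GS, 926 on the knockout, 162 on mGS and 181 on ES. It differed from its neighbours in that the knockout array was the high one, 6.03-fold above GS, with mGS and ES within 1.18-fold of GS.

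**Figure D2:**
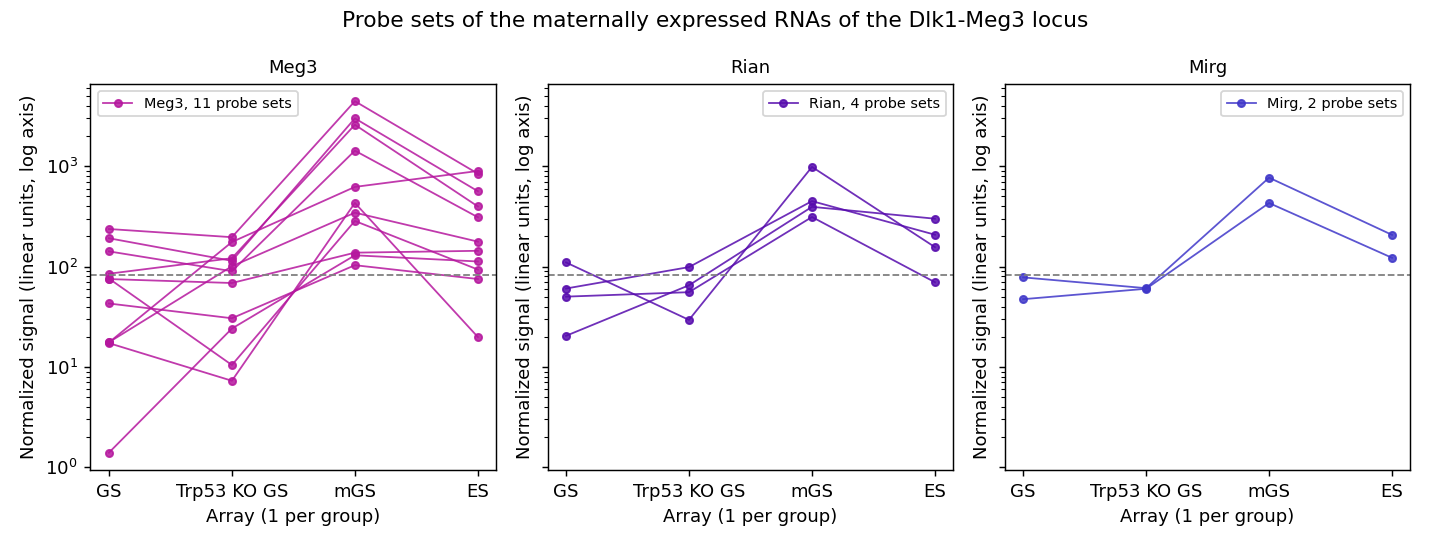
Normalized signal (linear units on a log axis) of each probe set of Meg3 (11), Rian (4) and Mirg (2) on the 4 arrays, with 1 line per probe set and the dashed line at the floor. Most lines peak on the mGS array, and the chosen Meg3 probe set goes from 237 on GS to 4455 on mGS and 844 on ES.

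The paternally expressed Peg3, Mest and Impact read higher on both mGS and ES than on GS. Nnat, also paternally expressed, was lower on both, by 1.35-fold on mGS. Inpp5f was lower on both too, but its probe sets were not matched to its imprinted short transcript. Peg3, a zinc finger protein gene next to Usp29 and Zim1 on chromosome 7, read 1430 on GS, 1687 on the knockout, 11946 on mGS and 7220 on ES. It was 8.35-fold higher on mGS than on GS and 5.05-fold higher on ES, with the knockout 1.18-fold above GS. The other 2 Peg3 probe sets above the floor gave the same order of the GS and mGS arrays, but put the knockout at least 2-fold above GS. Mest, an alpha/beta hydrolase gene on chromosome 6, read 615 on GS, 1529 on the knockout, 3376 on mGS and 3023 on ES. Both ES-medium arrays were above both others, by 5.48-fold for mGS and 4.91-fold for ES over GS, and the knockout lay between at 2.48-fold. Impact, a regulator of the stress kinase Gcn2, read 286 on GS, 423 on the knockout, 2743 on mGS and 1844 on ES. That is 9.60-fold higher on mGS and 6.45-fold higher on ES than on GS, although 1 of its other 2 probe sets, near the floor, had a log2 difference (a bound) of -0.07 for mGS against GS. The other, above the floor on all arrays, read 217 on GS, 172 on the knockout, 554 on mGS and 296 on ES. That probe set was 2.55-fold higher on mGS but only 1.37-fold higher on ES than on GS. With the mean of the Impact probe sets the ES difference from GS fell to a log2 value of 0.37.

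At the Snrpn locus on chromosome 7 the genes did not move as a block. Snrpn encodes a small ribonucleoprotein of splicing and shares its transcript with Snurf. Its own probe set read 8.34 on GS, 28.9 on the knockout, 211 on mGS and 215 on ES, so both ES-medium arrays were above the floor and both others under it. The difference from GS was at least 2.55-fold for mGS and at least 2.61-fold for ES. Another 6 probe sets are listed for Snurf and Snrpn together, and 4 of them were above the floor on all arrays. One of these read 1504 on GS, 2571 on the knockout, 10531 on mGS and 7734 on ES, and another 443, 403, 9925 and 6497. Over those 4 the mGS array was higher than GS by log2 differences of 2.81 to 4.49.

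Magel2, a ubiquitin ligase cofactor gene of the same locus, read 53.0 on GS, 39.4 on the knockout, 207 on mGS and 192 on ES, at least 2.51-fold higher on mGS than on GS. Its call and that of Snrpn's own probe set against GS were lost with a floor at the 60th percentile, at log2 differences of 0.43 and 0.45 for mGS. Ndn, which encodes the growth suppressor necdin, went the other way: it read 2789 on GS, 1658 on the knockout, 1132 on mGS and 1947 on ES. It was 2.46-fold lower on mGS than on GS, and all 5 of its probe sets that could be compared were at least 2-fold lower. With the mean of all 8 probe sets, 3 of them at background, the log2 difference was -0.64. Peg12, a Gsk3 binding protein gene, was above the floor on the ES array alone, at 94.8. Ube3a, a ubiquitin ligase gene imprinted in neurons, read 6016, 5322, 6971 and 6431 in the order GS, knockout, mGS and ES, within 1.31-fold over the arrays. Another of its 6 probe sets read 196, 183, 491 and 472 in that order, 2.51-fold higher on mGS and 2.41-fold higher on ES than on GS.

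**Figure D3:**
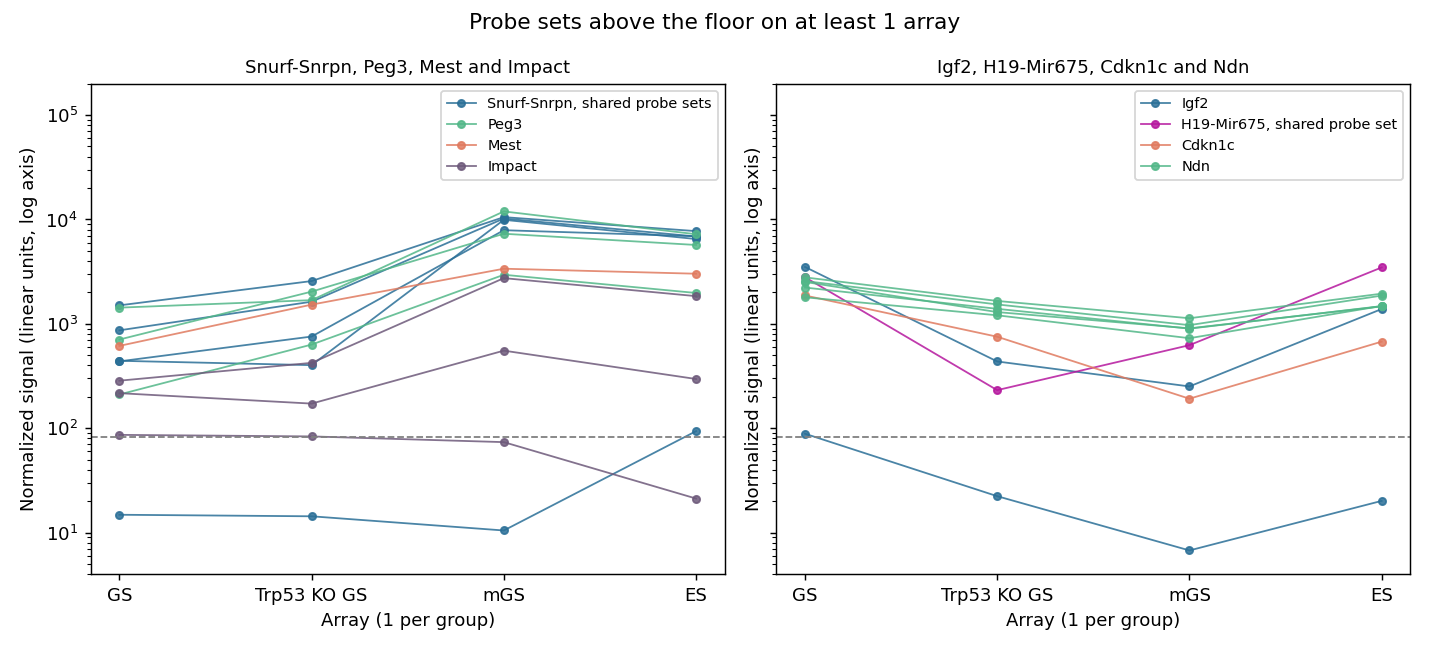
Normalized signal (linear units on a log axis) of probe sets that exceed the floor somewhere, with 1 line per probe set and the dashed line at the floor. On the left most Snurf-Snrpn, Peg3, Mest and Impact lines step up between the knockout and mGS arrays, and on the right the upper Igf2 line, Cdkn1c and Ndn start highest on GS and are lowest on mGS.

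At the Igf2-H19 locus on chromosome 7 the signals of both genes were low on the mGS and knockout arrays and high on GS and ES. Igf2, an insulin-like growth factor of the fetus, read 3511 on GS, 436 on the knockout, 252 on mGS and 1388 on ES. It was 13.9-fold lower on mGS and 8.04-fold lower on the knockout than on GS, and ES was 5.51-fold above mGS. The probe set listed for H19, a noncoding RNA of the maternal copy, and for Mir675, a microRNA cut from that RNA, read 2798 on GS, 232 on the knockout, 625 on mGS and 3471 on ES. The knockout was 12.1-fold and mGS 4.47-fold below GS, and ES was 1.24-fold above GS, whereas for Igf2 ES was 2.53-fold below GS and mGS was the lowest array. A second Igf2 probe set was near the floor on GS, at 88.7, and under it elsewhere.

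The neighbouring Kcnq1 locus holds growth inhibitors of the maternal copy and the noncoding RNA Kcnq1ot1 of the paternal copy, which keeps that copy silent. Cdkn1c, the inhibitor of cyclin-dependent kinases p57, read 1872 on GS, 753 on the knockout, 192 on mGS and 676 on ES. It was 9.75-fold lower on mGS and 2.48-fold lower on the knockout than on GS. Phlda2, a growth-limiting gene of the placenta, did the reverse: it read 173 on GS, 1601 on the knockout, 1859 on mGS and 3732 on ES. GS stood alone at the bottom, with mGS 10.7-fold, the knockout 9.24-fold and ES 21.5-fold above it. Kcnq1ot1 read 677 on GS, 266 on the knockout, 1415 on mGS and 485 on ES, so the mGS array was the high one and the knockout the low one. Its 2.09-fold difference between mGS and GS did not stay past 2-fold under every setting. The log2 difference was 0.96 with the values as deposited and 0.73 with the mean of its probe sets. The 2.55-fold lower signal of the knockout was shared by both probe sets that could be compared.

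The other genes of this locus lay near or within 2-fold between mGS and GS by their chosen probe sets. Ascl2, a transcription factor gene of the trophoblast, read 192 on GS, 115 on the knockout, 356 on mGS and 465 on ES, and was 2.43-fold higher on ES than on GS. For mGS against GS its chosen probe set gave 1.86-fold, while its other 2 probe sets were higher on mGS by log2 differences of at least 1.59 and at least 1.51, and the mean of probe sets gave a log2 difference of 1.60. Cd81, a tetraspanin gene imprinted in the placenta, read 2384, 1276, 4550 and 5554 in the order GS, knockout, mGS and ES, 2.33-fold higher on ES than on GS. On mGS it was 1.91-fold higher than on GS, and past 2-fold under the 3 other scalings, with log2 differences of 1.01 to 1.16. Both rank the ES-medium arrays above the others. Tssc4, of the same region, stayed within 1.34-fold of GS, with 776 on GS, 667 on the knockout, 581 on mGS and 631 on ES. Slc22a18, a transporter gene, was above the floor on ES alone, at 105.

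At the Peg10-Sgce locus on chromosome 6 the knockout array read highest for Sgce, Ppp1r9a and Peg10. Its margin over the next array was 2.68-fold for Sgce (mGS), 1.31-fold for Ppp1r9a (ES) and 1.26-fold for Peg10 (mGS). Sgce, which encodes epsilon-sarcoglycan, read 111 on GS, 545 on the knockout, 203 on mGS and 190 on ES, 4.91-fold higher on the knockout than on GS. Without probe sets prone to cross-hybridisation its log2 difference was 0.41, a bound from its other probe set, which was above the floor on the knockout array alone. Ppp1r9a, the gene of the actin-binding neurabin, read 115, 442, 279 and 338 in the order GS, knockout, mGS and ES, and GS was below each of the others by 2.42-fold or more. Its difference between mGS and GS was lost with the mean of its 5 probe sets, at a log2 value of 0.20. Peg10, a gene of retrotransposon origin needed in the placenta, read 5.70 on GS, 141 on the knockout, 112 on mGS and 45.9 on ES, above the floor on 2 arrays only.

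Among imprinted genes that lie apart from these clusters, Grb10, an adaptor that dampens insulin and growth factor receptors, had the widest range. It read 109 on GS, 560 on the knockout, 1016 on mGS and 4841 on ES, which is 9.33-fold higher on mGS and 44.5-fold higher on ES than on GS. The other 2 Grb10 probe sets, under the floor on GS, were at least 2.32-fold and at least 1.17-fold higher on mGS than on GS. All 3 Grb10 probe sets were at least 2-fold higher on ES than on mGS, and with their mean the knockout's log2 difference from GS was 0.97. Plagl1, a zinc finger gene, read 733 on GS, 153 on the knockout, 1181 on mGS and 1002 on ES, so only the knockout stood apart, 4.80-fold below GS. Inpp5f read 2107, 3603, 836 and 928 in the order GS, knockout, mGS and ES, and all 3 probe sets were at least 2-fold lower on mGS than on GS. The probe sets were not matched to its imprinted transcript.

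Igf2r, the receptor that clears Igf2, read 2244 on GS, 1643 on the knockout, 1178 on mGS and 961 on ES, 2.34-fold lower on ES than on GS and 1.91-fold lower on mGS. A second Igf2r probe set was 2.36-fold lower on ES, 2.13-fold on mGS and 1.99-fold on the knockout than on GS. The mGS log2 difference was -1.04 with the values as deposited and -1.01 with the mean of probe sets. Airn, the noncoding RNA read against Igf2r, was near the floor, at 88.3 on GS and 102 on ES and under it on the others. Nnat, the gene of neuronatin, read 1416, 660, 1049 and 467 in the order GS, knockout, mGS and ES, 3.03-fold lower on ES and 2.15-fold lower on the knockout than on GS. Mcts2, a retrogene of chromosome 2, had its high value on mGS, with 2563 against 1351 on GS, 1379 on the knockout and 1192 on ES. Slc38a4, an amino acid transporter gene, read 10479 on the knockout against 3342 on GS, 3503 on mGS and 2515 on ES, a 3.14-fold difference of the knockout from GS. Its second probe set read 2209 on the knockout and 1580 on GS, a 1.40-fold difference.

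**Figure D4:**
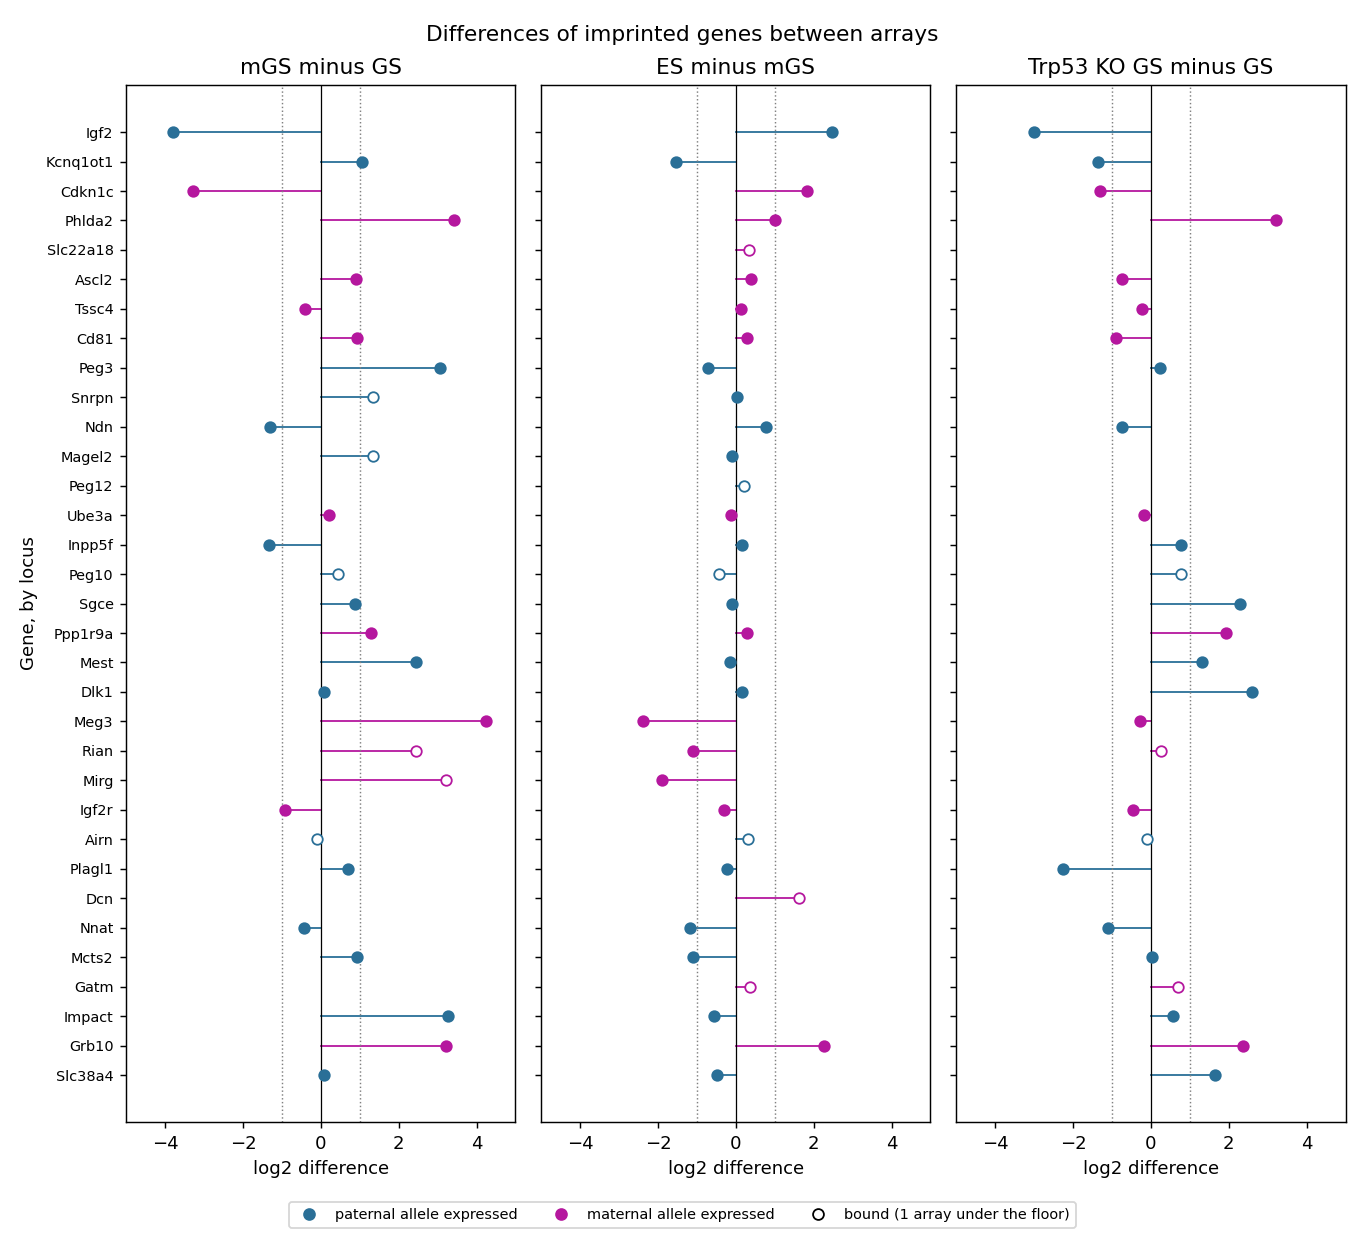
Log2 differences of mGS minus GS, ES minus mGS and knockout GS minus GS for the same 33 imprinted genes, coloured by the copy known to be expressed. Open circles are bounds, genes under the floor on both arrays have no point, and dotted lines mark 2-fold; Igf2 and Cdkn1c point left in the first and last panels and right in the middle one, while Meg3, Rian and Mirg point right in the first panel and left in the middle one.

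Grouping by the copy expressed did not separate the genes into one higher and one lower set. Against GS, 6 of 17 paternally expressed genes were at least 2-fold higher on mGS and 3 lower, with a median log2 difference of 0.69. Of 12 maternally expressed genes, 6 were higher and 1, Cdkn1c, was lower, with a median of 1.10. On ES against GS, the paternally expressed genes had 5 of 17 higher and 3 lower (median 0.21) and the maternally expressed genes 9 of 15 higher and 2 lower (median 1.28). Over all genes 17.4% were higher and 17.2% lower in that comparison, 34.6% together, and the 32 imprinted genes compared had 14 higher and 5 lower. Both comparisons share the GS array.

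Between the ES and mGS arrays, in the same kind of medium, 5 of 33 imprinted genes were at least 2-fold higher on ES and 6 lower. Of all genes 12% were that far apart, 6.9% higher and 5.13% lower. The higher ones were Igf2, 5.51-fold, Grb10, 4.77-fold, Cdkn1c, 3.52-fold, Dcn, at least 3.08-fold, and Phlda2, 2.01-fold. The lower ones were Meg3, 5.28-fold, Mirg, 3.72-fold, Kcnq1ot1, 2.92-fold, Nnat, 2.25-fold, Rian, 2.16-fold, and Mcts2, 2.15-fold. The Phlda2 value fell under 2-fold with arrays centred on their medians, at a log2 difference of 0.92, that of Dcn with the floor at the 60th percentile, at 0.73, and that of Kcnq1ot1 with the mean of its probe sets, at -0.73.

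Fibroblast transcripts were high on the ES array as well. Dcn, which encodes the matrix proteoglycan decorin of fibroblasts and is imprinted in the placenta, read 255 on ES and was under the floor on the other 3 arrays. Of 29 fibroblast markers measured, Dcn not among them, 28 were above the floor on ES, 19 on mGS, 21 on the knockout and 18 on GS. Their summed signal was 115863 on ES, 33828 on mGS, 11180 on the knockout and 6627 on GS. The 10 defining markers summed to 13674 on ES against 1029 on mGS, 2066 on the knockout and 1344 on GS. On the mGS array Col3a1, Pdgfra, Pdgfrb, Twist1, Prrx1, Lum and Postn were under the floor, and Col1a1, Col1a2 and Thy1 above it. Igf2, Grb10, Cdkn1c, Dcn and Phlda2 were thus higher on the array with the higher fibroblast markers, and the part of such cells in these differences was not tested. For mGS against GS the lists were split: the whole fibroblast list had 11 of 21 compared at least 2-fold higher and 3 lower on mGS, while the defining markers had 1 higher and 2 lower of 5. Sertoli cell markers summed to 4444 on mGS against 603 on GS, 2261 on ES and 563 on the knockout. Of 9 measured, 3 were above the floor on GS and 3 on mGS. Of 4 compared between these arrays, 2 were at least 2-fold higher on mGS and 1 lower. Trophoblast markers summed to 4479 on mGS, 5595 on ES, 728 on GS and 523 on the knockout. Of 9 measured, 5 were above the floor on mGS, 4 on ES, 2 on GS and 4 on the knockout. The part of any of these in the higher Meg3, Peg3, Impact and Grb10 on mGS was not tested.

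**Figure D5:**
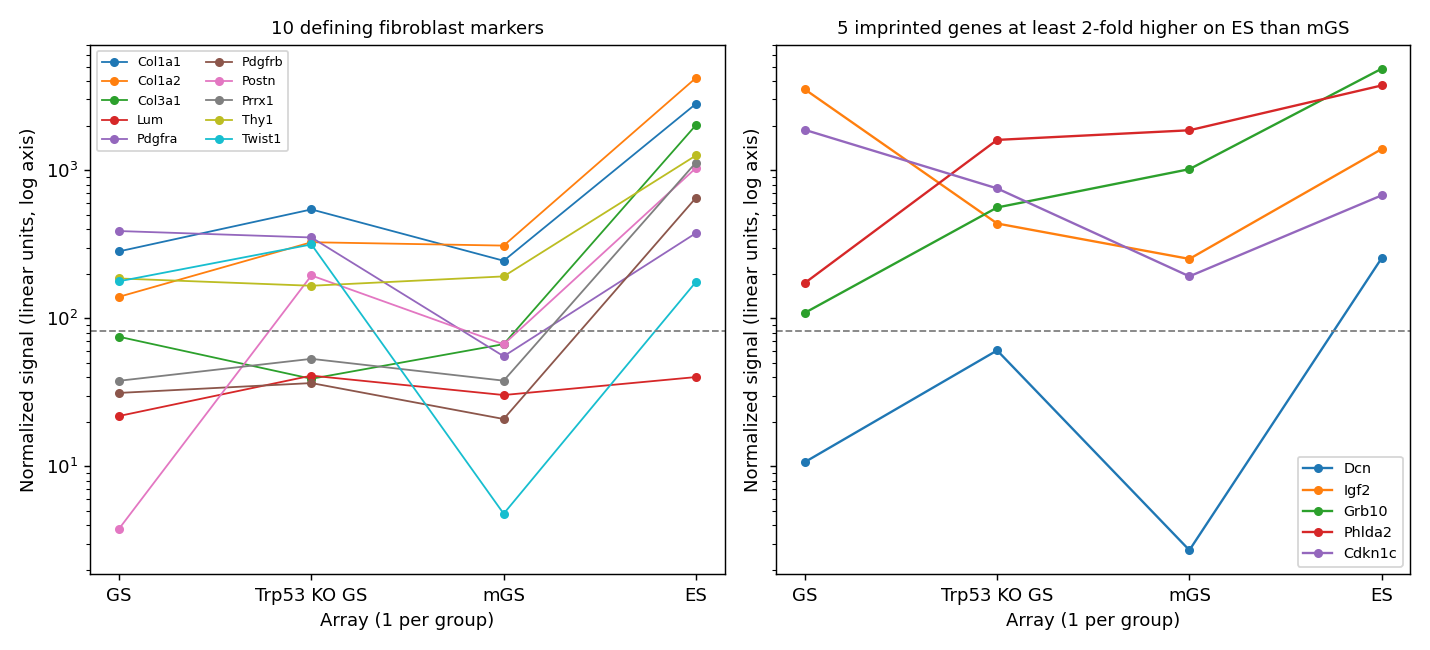
Normalized signal (linear units on a log axis) of the 10 defining fibroblast markers (left) and of 5 imprinted genes at least 2-fold higher on ES than on mGS (right), with 1 line per gene and the dashed line at the floor. Of the fibroblast markers, 9 are above the floor on ES and 3 on mGS, and the 5 imprinted genes are all higher on ES than on mGS.

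The Trp53 knockout GS array differed from the GS array at 12 of 27 imprinted genes compared, although both are GS cultures. At least 2-fold higher were 7: Phlda2, Dlk1, Grb10, Sgce, Ppp1r9a, Slc38a4 and Mest, of which Phlda2 differed by 9.24-fold, Dlk1 by 6.03-fold, Grb10 by 5.14-fold and Ppp1r9a by 3.84-fold. At least 2-fold lower were 5: Igf2, Plagl1, Kcnq1ot1, Cdkn1c and Nnat. Of all genes 16.7% were that far apart, 9.77% higher and 6.93% lower, and with arrays centred on their medians 838 genes were higher and 1072 lower in place of 1135 and 805, while the imprinted genes were 7 and 6. The median of the imprinted genes was 0.03 against 0.07 over all genes, so higher and lower members balanced. Gatm, a creatine synthesis gene imprinted in the placenta, read 134 on the knockout, 107 on ES and under the floor on GS and mGS. The labels give ICR for the knockout only, so strain, line and knockout cannot be told apart. Of 12 markers of undifferentiated spermatogonia measured, 7 were at least 2-fold lower on the knockout than on GS and 0 higher, with a median log2 difference of -1.22. Of the 10 germ cell markers 4 were higher and 1 lower, and of 21 fibroblast markers compared 9 were higher and 0 lower. The part of these cell types or states in the differences of imprinted genes was not tested.

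Genes that set or keep imprints were listed apart, and of 30 such genes 25 were measured. On mGS, 10 reached 2-fold above GS and 5 reached 2-fold below, while on ES 0 were that far above mGS and 1 of 24, Tet2, below. The shares of all genes at least 2-fold apart were 31.8% and 12% in these comparisons. Zfp57 read 94.8 on GS, 47.2 on the knockout, 1088 on mGS and 677 on ES, 11.5-fold higher on mGS than on GS. Dppa3, which shields maternal marks in the zygote, read 241, 1062, 2431 and 2643 in the order GS, knockout, mGS and ES. Dnmt3l, Tet1 and Tet2, a cofactor of new methylation and a pair of enzymes that oxidize methylcytosine, were also more than 4-fold higher on mGS than on GS, at signals of 9652, 5578 and 1746 on mGS. Kdm1b, a histone demethylase needed for marks in the oocyte, read 2492 on GS, 3338 on the knockout, 479 on mGS and 346 on ES, 5.21-fold lower on mGS than on GS. Uhrf1, which brings the maintenance methylase to new DNA, read 9815 on GS, 1873 on the knockout, 3748 on mGS and 4198 on ES, 5.24-fold lower on the knockout than on GS. On the knockout 2 of 24 genes of this list were higher than on GS and 1 lower, or 12.5% together, against 16.7% of all genes.

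A further 50 imprinted genes, many of them imprinted in single tissues only, were listed apart, and 43 were measured. On mGS, 7 of 28 compared reached 2-fold above GS and 6 reached 2-fold below (median log2 difference 0.17), where 15.3% of all genes were higher and 16.5% lower. Ddc, an enzyme gene of dopamine synthesis next to Grb10, read 134 on GS, 179 on the knockout, 3322 on mGS and 1080 on ES, 24.8-fold higher on mGS than on GS. Cobl, on the other side of that region, was under the floor on GS and the knockout and read 987 on mGS and 645 on ES. Zdbf2, a paternally expressed zinc finger gene, was 8.99-fold and Xist, the RNA that silences an X chromosome, at least 4.61-fold higher on mGS than on GS. Glis3 and Smoc1 were 23.9-fold and 5.64-fold lower. Tfpi2, a protease inhibitor gene of the placenta, was above the floor on ES alone, at 737. Gnas, which encodes the stimulatory G protein subunit, was 4.53-fold lower on the knockout than on GS, at 1551 against 7028.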

How the data were processed

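RNA of 4 cultures was measured with 1 Affymetrix array each. Per the labels' protocols, total RNA was taken up in Trizol and biotin-labelled cRNA was made. The authors deposited 1 linear intensity per probe set; which software summarised them was not given in the sources used here. After 2% trimming at each end every array had a mean of 500. Of 45101 probe sets, 64 controls were left out. Log2 values were quantile normalized. Of the rest 34945 had 1 gene symbol, 932 several and 9160 none; a gene took its probe set of highest mean, and probe sets with several symbols were described apart. Values under the array median, 6.37 on the log2 scale, were raised to it. All 39 genes were named by rule. Imprint maintenance and further imprinted genes were named at 4-fold or more, and of the fibroblast markers the defining ones. Members, lists and steps were chosen with earlier results of these data known. Sequences, chromosomes and current symbols come from RefSeq, GRCm38.p6. Steps were tested on simulated data. Alternatives were 3 other scalings, mean of probe sets, fewer or more probe sets, floors at the 30th and 60th percentiles or none, and a pseudocount of 32. Python 3.11.15, matplotlib 3.10.9, scipy 1.17.1, pandas 2.3.3 and numpy 2.4.6 were used.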

Additional observations from a re-analysis of the deposited data

How the results depend on the processing

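No paired analysis was possible because each group has 1 array. Of 58 member differences of at least 2-fold over 4 comparisons, 40 stayed past 2-fold under each of 10 settings that gave them a value, and none changed sign. Shares of all genes were counted for the other scalings and at 4-fold, but not for changed or absent floors or changed probe set choices. Member counts under those settings thus have no background share beside them. Without a floor the members lower on mGS than GS numbered 8 in place of 4, those higher on the knockout 12 in place of 7, and those lower on both ES-medium arrays 3 in place of 1. At 4-fold the counts were 2 lower on mGS than GS, 2 higher and 1 lower on ES than mGS, 4 higher and 2 lower on the knockout than GS, and 5 higher and 0 lower on ES than GS. Without cross-hybridising probe sets the knockout had 4 higher and 3 lower members in place of 7 and 5, and with the mean of probe sets 3 lower. On ES against GS, 14 higher became 9 with that mean and 9 with the floor at the 60th percentile, which also left 3 of the 7 members higher on both ES-medium arrays. Among imprint maintenance genes, mGS against GS had 3 lower with that mean in place of 5, and ES against mGS 2 lower without a floor in place of 1. Knockout against GS had 1 higher without cross-hybridising probe sets and 1 at the 60th percentile in place of 2, and 2 lower with that mean, 3 with the floor at the 30th percentile and 3 without a floor in place of 1. With that mean the log2 of the summed fibroblast markers was 11.69 on GS and 12.43 on the knockout, in place of 12.69 and 13.45. Causes were not tested. When arrays were centred on medians, the all-gene median moved by -0.11 (ES against mGS) and -0.16 (knockout against GS). Signals near the floor limit Snrpn's own probe set, Magel2, Rian, Mirg, Dcn, Peg10 and Airn most.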
